A study of Mus musculus with 36 samples.

Results

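In control neurospheres cultured from newborn hippocampi, 585 of 9507 CpG-rich autosomal promoters (6.15%) lay under islands of both Polycomb marks. These are the trimethylation of histone H3 at lysine 27 (H3K27me3) and the monoubiquitylation of histone H2A (H2AK119ub1). A promoter was the 2 kb on either side of the transcription start site (TSS) of a protein-coding gene on mm10. It counted as CpG-rich where the 1 kb around the TSS had a GC content above 50% and an observed-to-expected CpG ratio above 0.6. An island is a stretch in which the authors' peak caller found enrichment over input, and a promoter joined the set where islands covered at least 50% of its bases in both H3K27me3 and both H2AK119ub1 libraries of control neurospheres. The members were thus chosen by 4 of the 24 libraries, and the other 20 played no part in the choice.

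The libraries came from mice at postnatal day 0, either from dissected hippocampus or from neurospheres, which are free-floating progenitor cultures grown from hippocampal cells for 3 generations with FGF2 and EGF. The mutants, labelled Kdm2bEmx1-delta-CxxC and called cKO, carry floxed Kdm2b alleles that Emx1-driven Cre recombines to remove the CxxC zinc finger. Emx1-Cre acts in the progenitors of the dorsal telencephalon, so vessels, microglia and other cells of a dissected hippocampus keep the floxed allele. Controls (Ctrl) were labelled Kdm2bfl/+ or Kdm2bfl/fl, with no statement of which library had which genotype. H3K27me3, H2AK119ub1 and the dimethylation of histone H3 at lysine 36 (H3K36me2) were each profiled by ChIP-seq in 2 libraries per genotype and source. The labels do not say whether replicates came from separate animals or cultures, and the genotype cannot be read from island files because these list islands with their counts and not the reads over the deleted exon. Nor were the labelled tissue and cultures checked against marker genes, since islands hold no expression values.

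KDM2B carries a CxxC domain that binds unmethylated CpG dinucleotides and brings a variant Polycomb repressive complex 1, PRC1.1, to CpG islands. The RING1 ubiquitin ligase of that complex deposits H2AK119ub1, which other Polycomb complexes can bind, and Polycomb repressive complex 2 deposits H3K27me3. The long form of KDM2B also holds a demethylase domain that acts on H3K36me2, a mark of gene bodies and intergenic chromatin that hinders Polycomb repressive complex 2.

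Across the 24 files the islands held 987329 to 22021439 counted reads and covered 37.3 to 497 Mb, and the 2 libraries of a group could differ several fold in covered length. The H2AK119ub1 libraries of control neurospheres differed most for the choice of members. Replicate 1 covered at least 50% of 2787 CpG-rich promoters and replicate 2 covered that much of 786, whereas the H3K27me3 libraries covered that much of 1251 and 1289. Without H2AK119ub1 replicate 2 the set would hold 1049 promoters, and without any other of these 4 libraries it would hold 596 to 604. Of the remaining CpG-rich promoters, 557 met the limit for H3K27me3 only, 123 for H2AK119ub1 only and 8242 for neither.

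Most members lay well inside the limit, since islands covered every base of 332 of them in all 4 libraries. In the library where each was covered least, Rimkla stood at 50%, Gm20696 at 50.1% and Eif4e3 at 50.8% just inside, while Ccdc87 stood at 49.1%, Gpr160 at 48.7% and Cdkn2a at 48.7% just outside. Between 50% and 60% lay 23 members, and 71 promoters lay within 10 percentage points below the limit. These values chose the members and are given as a description.

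The CpG content of the members varied widely, and 7 promoter sequences show its range and the cases described later. Each is the 250 bases upstream of the TSS in mm10, outside the annotated transcript, written 5′ to 3′ on the strand of the gene with CG dinucleotides in capitals. Wnt9a, a Wnt ligand gene (chr11:59306678-59306927, plus strand), had the most CG of any member over the 300 bases from 250 before to 50 after the TSS. H2-Q2, a class I major histocompatibility gene (chr17:35341992-35342241, plus strand), was 1 of 3 members with the fewest, and it has close paralogs, so its reads cannot be placed with certainty. Galnt9, a glycosyltransferase gene (chr5:110544105-110544354, plus strand), and Adcy7, an adenylyl cyclase gene (chr8:88272153-88272402, plus strand), were the members with the largest lower and the largest higher H3K27me3 coverage in cKO hippocampi. Fgfr4, a fibroblast growth factor receptor gene (chr13:55152390-55152639, plus strand), was 1 of 3 members that H3K36me2 islands covered completely in both control neurosphere libraries. Lhx1, a LIM homeobox gene (chr11:84525536-84525785, minus strand), is shown because it was covered completely in all 16 Polycomb libraries and was added after its values were seen. Rpl37, a ribosomal protein gene (chr15:5116395-5116644, plus strand), is no member and stands for the 31 CpG-rich ribosomal protein promoters without a Polycomb island in any library, among which its CG number was the median.
Wnt9a: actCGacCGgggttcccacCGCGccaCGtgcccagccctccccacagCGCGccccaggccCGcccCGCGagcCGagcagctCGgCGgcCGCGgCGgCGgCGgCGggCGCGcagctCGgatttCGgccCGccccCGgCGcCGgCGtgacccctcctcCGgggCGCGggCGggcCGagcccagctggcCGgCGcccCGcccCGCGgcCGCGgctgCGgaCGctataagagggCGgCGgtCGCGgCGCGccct
H2-Q2: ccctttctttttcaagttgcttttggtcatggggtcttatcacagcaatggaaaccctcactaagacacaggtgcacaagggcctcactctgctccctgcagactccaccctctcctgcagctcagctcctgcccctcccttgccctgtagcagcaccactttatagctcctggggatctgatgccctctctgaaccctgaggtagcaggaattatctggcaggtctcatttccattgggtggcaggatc
Galnt9: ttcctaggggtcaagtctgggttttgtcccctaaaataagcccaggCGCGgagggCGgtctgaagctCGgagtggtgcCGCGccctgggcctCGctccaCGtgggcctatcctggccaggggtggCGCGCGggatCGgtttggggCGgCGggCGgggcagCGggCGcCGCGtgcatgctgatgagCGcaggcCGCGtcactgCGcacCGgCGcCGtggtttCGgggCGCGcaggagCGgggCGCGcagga
Adcy7: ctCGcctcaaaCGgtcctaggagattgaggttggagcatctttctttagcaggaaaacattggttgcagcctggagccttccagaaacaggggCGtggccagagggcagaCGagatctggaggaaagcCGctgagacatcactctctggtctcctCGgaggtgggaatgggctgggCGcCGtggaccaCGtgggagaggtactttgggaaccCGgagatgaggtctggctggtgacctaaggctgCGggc
Fgfr4: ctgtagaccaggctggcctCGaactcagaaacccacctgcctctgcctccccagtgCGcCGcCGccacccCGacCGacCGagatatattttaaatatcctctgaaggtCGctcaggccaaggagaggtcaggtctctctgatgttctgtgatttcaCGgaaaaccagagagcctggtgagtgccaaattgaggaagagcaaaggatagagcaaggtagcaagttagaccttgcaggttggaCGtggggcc
Lhx1: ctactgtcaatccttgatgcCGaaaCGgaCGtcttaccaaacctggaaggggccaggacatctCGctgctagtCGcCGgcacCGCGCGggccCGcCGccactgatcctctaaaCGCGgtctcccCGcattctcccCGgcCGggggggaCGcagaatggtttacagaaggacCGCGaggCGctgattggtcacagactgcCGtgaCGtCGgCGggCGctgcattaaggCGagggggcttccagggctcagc
Rpl37: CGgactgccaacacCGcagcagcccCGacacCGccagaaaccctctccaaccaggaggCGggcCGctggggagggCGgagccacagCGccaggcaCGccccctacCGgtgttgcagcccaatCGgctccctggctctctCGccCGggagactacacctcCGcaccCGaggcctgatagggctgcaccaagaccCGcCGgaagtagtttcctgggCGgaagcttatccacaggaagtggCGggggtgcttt

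The printed stretch held 48 CG in Wnt9a, 32 in Galnt9, 26 in Lhx1, 19 in Rpl37, 11 in Adcy7, 10 in Fgfr4 and 0 in H2-Q2. Over the 300 bases that also take in the first 50 of the transcript, the median member had 24 CG, with the middle 50% of members between 16 and 32. Promoters with neither mark also had a median of 24 CG, those with H3K27me3 only 23 and those with H2AK119ub1 only 28. The median GC content over 1 kb was 63.4% in members against 61.1% in promoters with neither mark, and the median CpG ratio was 0.749 against 0.793. CG density was thus similar in members and in the other CpG-rich promoters, which had to pass the same limits.

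Short sequence motifs differed more than CG density did. Each was searched on both strands in the same 300 bases. The letters CCGGAAG, bound by ETS factors, occurred in 2.91% of members (17 promoters), in 4.67% of those with H3K27me3 only, in 21.0% of those with neither mark and in 18.7% of all CpG-rich promoters. GCATGCGC, the site of nuclear respiratory factor 1, occurred in 1.88% of members (11 promoters), in 1.97% of those with H3K27me3 only and in 6.18% of all. The low share of both motifs was thus also found with H3K27me3 only. TATAAA, the core of the TATA box, went the other way, with 9.23% of members (54 promoters) against 5.81% of all. Promoters with H3K27me3 only had 6.46%. The printed Rpl37 stretch holds the ETS letters. CCAAT (35.6% of members, 37.9% of all), GGGCGG (74.9% and 71.8%), CACGTG (11.97% and 11.3%) and CGCG (83.2% and 83.4%) differed little. These shares describe letters in a window and not bound sites.

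Genes for transcription factors made up much of the set. Of 302 CpG-rich promoters in 9 transcription factor classes 164 were members, or 54.3%, and these made up 28.0% of the set. All 24 CpG-rich Hox cluster promoters were members, as were both Gata promoters. Of the homeobox genes outside the Hox clusters 83 of 116 were members (71.6%), of the T-box genes 5 of 8, of the forkhead genes 16 of 29, of the basic helix-loop-helix genes of lineage choice 16 of 34, of the Zic, Gli, Klf and Sall genes 15 of 54 and of the Sox genes 3 of 15. None of the 20 nuclear receptor promoters was one.

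Signalling genes followed at a lower share, with 29 members among 136 CpG-rich promoters of 4 classes (21.3%). They comprised 11 of 47 Wnt pathway genes, 6 of 22 TGF-beta and BMP genes, 5 of 15 FGF and Hedgehog genes and 7 of 52 Notch, Eph, semaphorin and Slit genes. Of the genes that mature neurons use, 12 of 61 ion channel genes and 9 of 43 neurotransmitter receptor genes were members. No member was found among the 156 promoters of ribosomal protein, proteasome and respiratory chain genes, which every cell uses, nor among the 6 CDK inhibitor, 3 glial and 3 protocadherin promoters. Of 30 CpG-rich promoters of KDM2B complex and Polycomb enzyme genes 3 were members, namely Pcgf1, which encodes the PCGF subunit of PRC1.1, Cbx2, a chromodomain subunit of canonical PRC1, and Epop, a partner of Polycomb repressive complex 2. The other 368 members belonged to no class, which was 4.20% of the 8767 unclassified CpG-rich promoters.

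**Figure D1:**
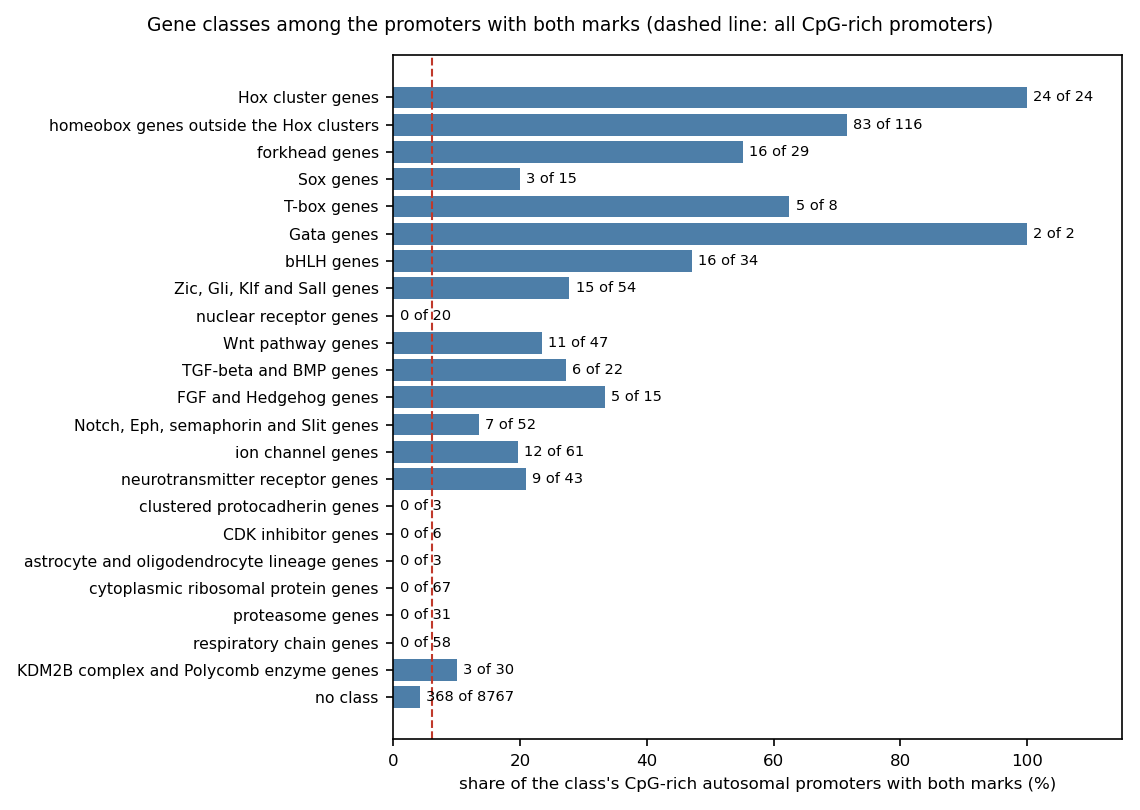
Share of the CpG-rich autosomal promoters of each gene class that were members, in percent, with members and promoters counted beside each bar. Hox cluster promoters stand at 100%, homeobox genes outside the clusters at 71.6%, and the 3 housekeeping classes at 0.

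Members lay close together in places. Of the 585, 120 (20.5%) had another member within 100 kb, and 28 shared bases with another member, so that 571 separate stretches remained. The same distances were not computed for the other CpG-rich promoters, so these counts describe the members alone. Chains of at least 4 members with gaps under 100 kb numbered 5 and held 33 members. They were Hoxa with Evx1 (12 members, chromosome 6), Hoxd with Evx2 (8, chromosome 2), Hoxc (5, chromosome 15), a stretch from Eif4e3 to Prok2 (4, chromosome 6) and another from Prtn3 to Arid3a (4, chromosome 10). Chromosome 6 had the highest share of members among its CpG-rich promoters, 51 of 456 (11.2%), and chromosome 10 the lowest, 16 of 486 (3.29%). Members of such chains can share 1 island and are not independent measurements.

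In hippocampal tissue, H3K27me3 covered most members in both genotypes. Mean coverage over the 585 promoters was 72.5% and 68.6% in the Ctrl libraries against 64.4% and 80.6% in the cKO libraries. The other CpG-rich promoters had 7.69% and 6.20% against 5.41% and 11.2%, so coverage of members was 9.73-fold that of the rest (geometric mean, 7.21 to 11.9 over the 4 libraries). An island touched 484 and 457 members in Ctrl against 433 and 524 in cKO hippocampi. In 347 members (59.3%) islands covered at least 50% of the promoter in all 4 libraries, and in 250 they covered every base. At the other end, 51 members (8.72%) had no H3K27me3 island in any hippocampal library. In bulk tissue, fewer cells with a mark and less mark per cell cannot be told apart.

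The genotypes overlapped in this measure. The mean was 70.6% ± 2.77 in Ctrl and 72.5% ± 11.5 in cKO (SD, n = 2 each), a difference of 1.91 percentage points that lay within the spread of the cKO libraries. Its sign turned without Ctrl replicate 2 (-0.047) and without cKO replicate 2 (-6.21). With 2 libraries against 2 an exact permutation test cannot go below p = 0.333, and since the members were chosen with results of these data known, no p is given for a mean over them. Of the 534 members with an island in at least 1 hippocampal library, coverage was lower in both cKO than in both Ctrl libraries in 14 (2.62%) and higher in 31 (5.81%). Among all CpG-rich promoters with an island those shares were 3.76% and 8.96%. As 250 members were covered completely in all 4 libraries and could not be apart, the shares were also taken without such promoters, a choice made after seeing the data. They were then 4.93% and 10.9% of 284 members and 4.31% and 10.3% of 2297 CpG-rich promoters, close to each other in both directions.

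Among the members that were lower in both cKO libraries, Galnt9 and Pltp, a phospholipid transfer protein gene, were covered completely in both Ctrl libraries and stood at 0% in cKO replicate 1 and at 93.9% and 97.8% in replicate 2. Scube3 had 83.5% and 73.5% in Ctrl against 0% and 63.5% in cKO, and Scarf2, a scavenger receptor gene, went from 100% in both to 27.03% and 82.03%. In these 4 the lower value was that of cKO replicate 1, the library with the lowest member coverage. Igf2bp2, which encodes an RNA-binding protein, had 22.6% and 70% in Ctrl against 0% in both cKO libraries.

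Higher in both cKO libraries were Adcy7, with no island in Ctrl and complete coverage in both cKO libraries, and Tns1, a focal adhesion gene, with 0% in both against 43.8% and 100%. Kank4 had 0% and 66.6% against 100% in both. Lypd6b had 37.2% and 30% against 100% in both, and Shisa9, an AMPA receptor auxiliary gene, 42.8% and 32.8% against 100% and 92.8%. The cKO islands of Adcy7 held 34.6 and 36.6 counts per kb, below the member medians of 53.1 and 54.1 in those libraries. Its lack of an island in Ctrl is not a measured 0. Members higher in both cKO libraries made up 5.81%, beside 8.96% of all CpG-rich promoters with an island. The printed promoter stretch of Adcy7 holds 11 CG.

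H2AK119ub1 in the hippocampus differed more between replicates than between genotypes. Mean coverage of members was 26.3% and 74.5% in Ctrl against 16.8% and 77.7% in cKO, and both replicate 1 libraries were the low ones. The number of members with an island followed, with 295 and 501 in Ctrl against 191 and 532 in cKO. The group means were 50.4% ± 34.1 and 47.3% ± 43.0 (SD, n = 2 each), and their difference of -3.12 percentage points was far smaller than either SD. The difference became 21.0 percentage points without Ctrl replicate 2 and 27.3 without cKO replicate 1, and it became -27.2 without Ctrl replicate 1 and -33.6 without cKO replicate 2. The other CpG-rich promoters had 1.88% and 11.9% in Ctrl against 0.812% and 12.9% in cKO, and the ratio of members to others was above 1 in 4 of 4 libraries, 10.2-fold as a geometric mean (6.01 to 20.8).

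Few members were apart between the genotypes in tissue H2AK119ub1, at shares close to the background. Of 563 with an island, 18 were lower in both cKO libraries (3.197%, background 2.28%) and 4 higher (0.710%, background 1.07%). Dpy19l2 had 67.7% and 100% in Ctrl and no island in cKO. Cadps2, a dense-core vesicle priming gene, had 50% and 100% against none, and Myo1d had 20.6% and 100% against none. Jakmip1 had 96.7% and 100% against 0% and 75%. Among those that were higher were Prima1, with 18.7% and 46.3% against 100% and 71.3%, Nkx2-4, with 0% and 93.9% against 100% in both, and Aldh1a2, a retinoic acid synthesis gene, with 70.3% and 69.7% against 100% in both. Nkx2-4 is a homeobox gene, and its lower Ctrl value was that of replicate 1. Only 52 members (8.89%) were covered to at least 50% in all 4 libraries.

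**Figure D2:**
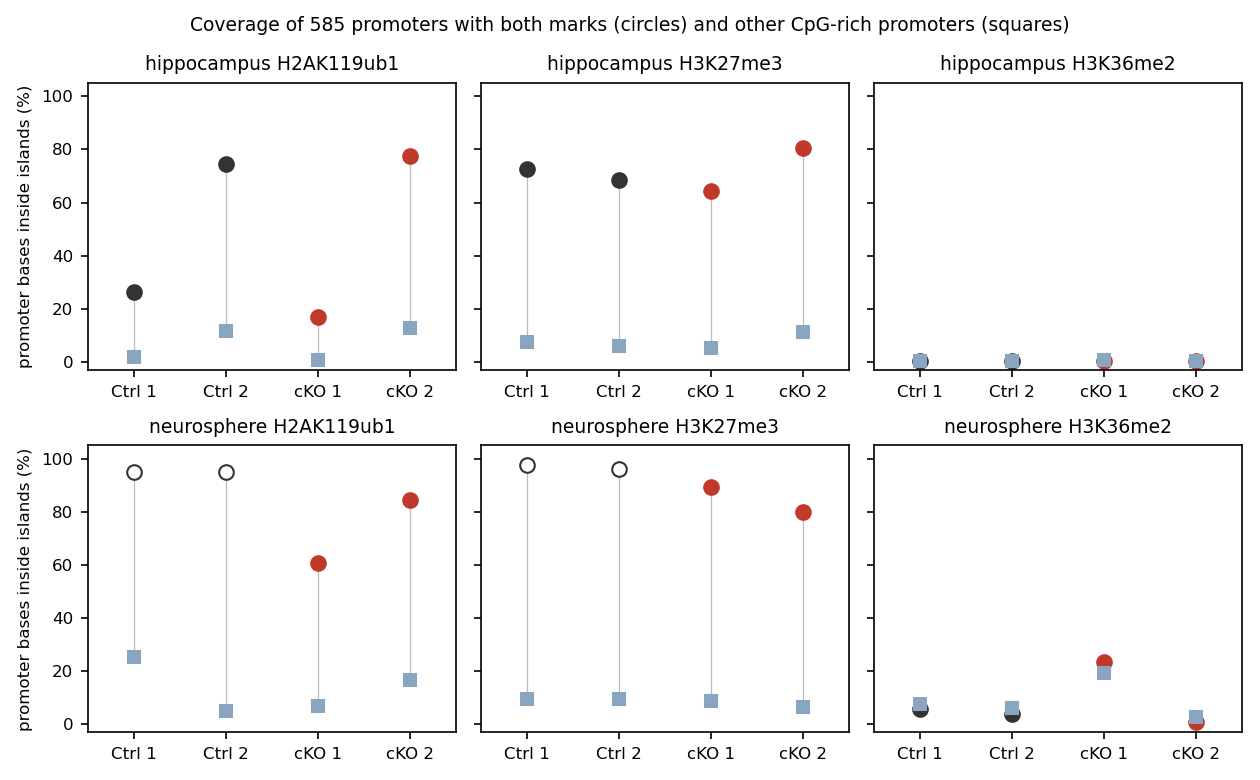
Mean share of promoter bases in islands, in percent, for the 585 members (circles) and the other CpG-rich promoters (squares) in each library, with open circles for the 4 libraries that chose the members. Members lie above the other promoters in every H3K27me3 and H2AK119ub1 library, while in hippocampus H3K36me2 both stay under 1%.

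H3K36me2 islands were nearly absent from members in tissue. Coverage was 0.298% and 0.463% in Ctrl against 0.495% and 0.290% in cKO hippocampi, and 11 to 17 of the 585 members had an island. The rest of the CpG-rich promoters had 0.424% and 0.325% against 0.739% and 0.526%. Among 44 members with an island, 1 was lower in both cKO libraries (2.27%, background 1.79%) and 1 higher (2.27%, background 5.13%). These were Itgb5, with 23.4% and 8.4% against 0% in both, and Klhdc8a, with 0% in both against 24.4% and 9.38%, both named after their values were seen. The members' median island was 3.2 and 2.4 kb wide in Ctrl against 4.0 and 4.4 kb in cKO, medians that rest on those 11 to 17 promoters. Over the other CpG-rich promoters it was 3.2 and 3.0 kb in Ctrl against 3.6 and 4.8 kb in cKO.

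In neurospheres H3K36me2 reached more members, and 1 library stood apart. Coverage was 5.66% and 3.74% in Ctrl, 23.3% in cKO replicate 1 and 1.06% in cKO replicate 2. Islands touched 61 and 51 members in Ctrl against 228 and 21 in cKO. The cKO values lay on both sides of the Ctrl values, at 12.2% ± 15.8 against 4.70% ± 1.35 (SD, n = 2 each). Without cKO replicate 1 the difference of 7.503 percentage points became -3.64. The other CpG-rich promoters had 7.55% and 6.12% in Ctrl against 19.3% and 2.79% in cKO and so showed the same order of libraries. Over all 8 H3K36me2 libraries the members had 0.727 times the coverage of the other promoters (geometric mean, 0.380 to 1.42), and they were above them in 2 of 8.

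Of 237 members with an H3K36me2 island in neurospheres, 4 were lower in both cKO libraries (1.69%, background 3.72%) and 12 higher (5.06%, background 5.35%). Both shares were near or below those of all CpG-rich promoters. Loxl2, a lysyl oxidase gene, had 85% and 78.3% in Ctrl and no island in cKO. P4ha3 had 55% in both against 50% and 0%, Myo5c 100% and 80% against 50.5% and 0%, and Mroh5 100% in both against 92.6% and 0%. Among the higher members were the homeobox genes Gsx2, with 15% and 0% against 100% in both, and Otx2, with 0% in both against 65% and 55.5%. H2-Q2 had 0% in both against 100% and 35%, Nacc2 19.5% and 0% against 100% and 45.5%, and Sema4b 0% in both against 100% and 14%.

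A small number of members carried H3K36me2 along with the Polycomb marks in control neurospheres. Fgfr4, Wdr86 and Mroh5 were covered completely by H3K36me2 islands in both Ctrl libraries, and Kank4 had 80% and 100%, Cpne7 100% and 80%. Wnt5b had 91.4% and 100% in Ctrl against 100% and 38.7% in cKO. Of these, Fgfr4, Wdr86, Cpne7 and Kank4 stood at 100% in cKO replicate 1 and at 0% in replicate 2. An H3K36me2 island was present in all 4 neurosphere libraries at 5 members, Afap1, Sez6, Slc6a11, Sorl1 and Wnt5b, and in all 4 hippocampal libraries at none.

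In neurospheres the H3K27me3 and H2AK119ub1 values of the Ctrl libraries chose the members, and so the cKO values against them are a description with no test. Members had H2AK119ub1 coverage of 94.9% and 95.04% in Ctrl against 60.6% and 84.3% in cKO, and H3K27me3 coverage of 97.5% and 96.2% in Ctrl against 89.4% and 79.8% in cKO. The mean differences were -22.5 and -12.2 percentage points. For H2AK119ub1, 134 of 585 members were lower in both cKO libraries (22.9%) and 8 higher (1.37%), beside 9.42% and 3.15% of all CpG-rich promoters with an island. For H3K27me3, 101 were lower (17.3%) and 13 higher (2.22%), beside 18.4% and 5.89%. Nothing is read from these counts, because a promoter chosen for high Ctrl coverage has more room below than above.

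Applied to the cKO neurosphere libraries, the same rule selected 396 promoters, of which 314 were among the 585 (79.3% of the former and 53.7% of the latter). In those 396 H2AK119ub1 coverage was 95.4% and 78.7% in Ctrl against 85.6% and 95.2% in cKO, and H3K27me3 coverage was 98.9% and 98.0% against 98.3% and 97.1%. Applied to hippocampal libraries the rule gave 193 promoters in Ctrl (133 of them members) and 111 in cKO (86 of them members). Selected on H3K27me3 alone, the hippocampal Ctrl libraries gave 831 promoters with 387 members among them and the cKO libraries 766 with 369.

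In cKO neurospheres both marks still covered most of the members. H2AK119ub1 covered at least 50% of 365 and 515 members in the cKO libraries, and H3K27me3 covered that much of 532 and 465. Since members had to reach 50% in the Ctrl libraries, they could only stay above that limit or fall below it. The same counts were not made over all CpG-rich promoters, so nothing is read from those that follow. Under 50% in both cKO libraries were 56 members for H2AK119ub1 and 51 for H3K27me3, and 16 for both marks. These 16, listed after their values were seen, were Adamts8, Amigo1, Creb5, En2, Frmd4b, Gm5089, Hk2, Mycn, Nuak2, Pced1b, Pdlim1, Rimkla, Sema4b, Sertad4, Tec and Uaca. Mycn, a growth-promoting transcription factor gene of progenitors, had 37.2% and 0% of H2AK119ub1 and 47.2% and 0% of H3K27me3 in cKO neurospheres. It had 100% in all 4 Ctrl libraries, which chose the members. It had no H3K27me3 island in any hippocampal library. En2, a homeobox gene of the midbrain and hindbrain, had 12.7% and 45% of H2AK119ub1 and 12.7% and 27.7% of H3K27me3, yet H3K27me3 covered it completely in all 4 hippocampal libraries. Igf2bp2 had 100% and 80% of H2AK119ub1 in Ctrl neurospheres and no island in cKO.

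Position relative to the TSS showed where islands of each mark lay. In hippocampal H3K27me3 libraries 61.0% to 80.2% of members were in an island at the TSS and 37.6% to 60.5% at 5 kb on either side, lower in all 4. Both replicate 1 libraries dipped at the TSS between higher flanks. Ctrl replicate 1 had 68.9% there against 72.1% and 74.2% at 2 kb upstream and downstream. In cKO replicate 1 it was 61.0% against 65.1% and 65.5%. Replicate 2 had 68.4% against 63.2% and 68.7% in Ctrl and 80.2% against 78.3% and 79.1% in cKO. Promoters with H3K27me3 only had 38.2% to 69.8% at the TSS and 14.4% to 35.9% at 5 kb. In both H2AK119ub1 replicate 2 libraries the share of members was also higher at the TSS, with 73.3% (Ctrl) and 77.1% (cKO) against 45.3% to 57.6% at 5 kb. The Ctrl replicate 1 library had 19.7% at the TSS, 29.6% and 30.6% at 2 kb upstream and downstream and 18.8% and 21.9% at 5 kb, so it dipped at the start site between higher flanks. The cKO replicate 1 library had 14.2% at the TSS, 17.3% and 17.8% at 2 kb and 13.7% and 11.8% at 5 kb, the same shape at a lower level. In cKO neurospheres replicate 1 of H2AK119ub1 was lower at the TSS (49.2%) than at 5 kb upstream (53.9%) or downstream (62.4%), whereas replicate 2 was higher there (84.6% against 67.9% and 76.1%). H3K36me2 had the opposite shape, with 0.171% of members in each Ctrl library and 0 in both cKO libraries inside an island at the TSS and 3.93% to 7.86% at 50 kb on either side. In neurospheres 5.47% and 2.91% of members in Ctrl were in an H3K36me2 island at the TSS and 21.4% and 20.0% at 50 kb downstream. The cKO libraries had 23.4% and 0.513% at the TSS and 34.2% and 8.21% at that distance. This shape was not particular to the members. In hippocampal libraries the other CpG-rich promoters had 0.0336% to 0.056% at the TSS and 3.51% to 7.03% at 50 kb on either side. In neurospheres they had 5.42% and 2.26% at the TSS in Ctrl and 21.96% and 21.59% at 50 kb downstream.

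**Figure D3:**
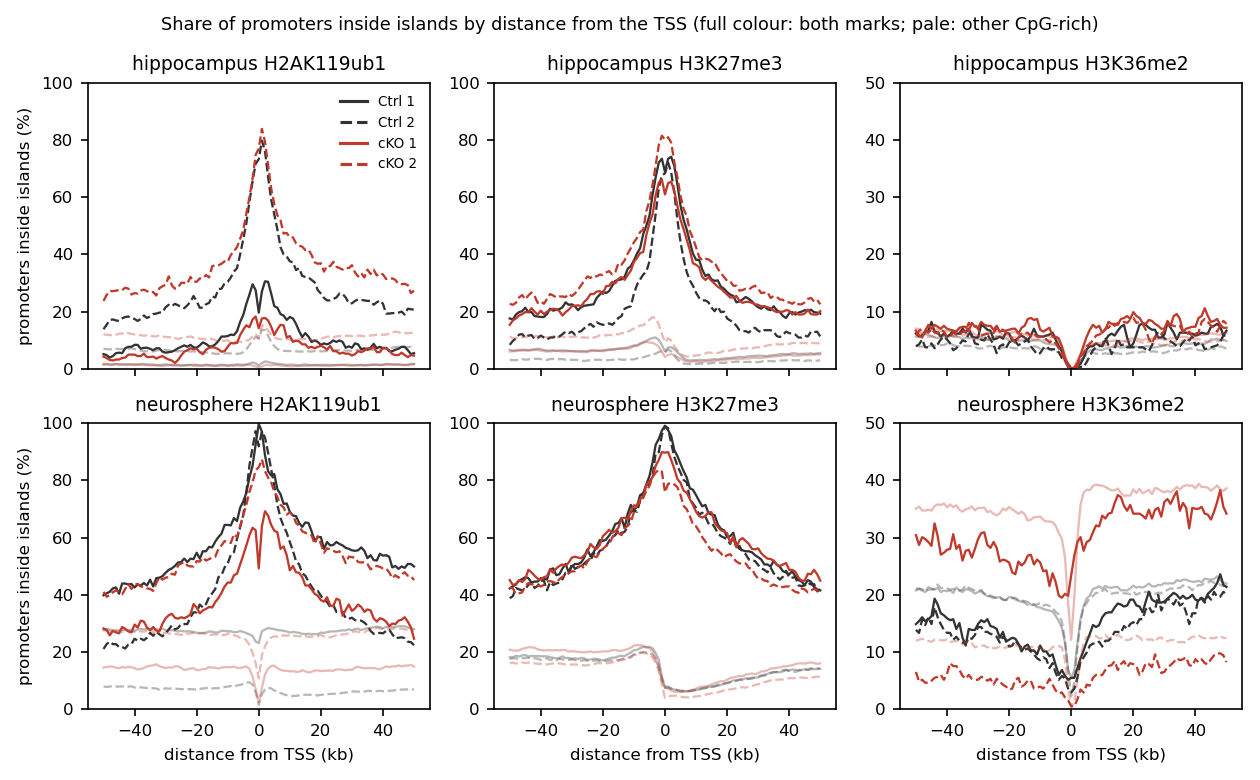
Share of promoters inside an island, in percent, against distance from the TSS in kb along the direction of the gene. Each library has 1 line in full colour for the 585 members and 1 pale line for the other CpG-rich promoters. Members in hippocampal H3K27me3 stand at 61.0% to 80.2% at the TSS, above their values at 5 kb. In hippocampal H3K36me2 the members drop there to 0.171% or 0, and the other CpG-rich promoters drop there too.

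Islands over members were wide. The median H3K27me3 island over a member was 12.7 and 9.4 kb in Ctrl against 13.2 kb in both cKO hippocampal libraries. Over the other CpG-rich promoters it was 4.2 to 5.6 kb. The group means were 11.1 kb ± 2.33 and 13.2 kb (n = 2 each). The genotypes did not overlap, but they did with islands of at least 2 kb, at equal covered length and with stricter GC and CpG limits. H2AK119ub1 islands in tissue were 3.4 and 9.2 kb in Ctrl against 3.2 and 8.6 kb in cKO, again following the replicate rather than the genotype. In neurospheres H3K36me2 islands over members were 9.6 and 7.4 kb in Ctrl against 4.8 and 3.0 kb in cKO, without overlap (8.5 kb ± 1.56 against 3.9 kb ± 1.27, SD, n = 2 each). Those over the other promoters were 5.2 and 4.8 kb in Ctrl against 4.0 and 3.0 kb in cKO, in the same order. The cKO replicate 1 library, with the highest member coverage, thus had many islands of modest width. Counts within islands were also higher over members for hippocampal H3K27me3, at 43.0 and 39.1 reads per kb in Ctrl against 53.1 and 54.1 in cKO. The others had 33.2, 28.9, 42.8 and 32.4 in the same order. Counts per kb also carry each library's depth, so members and others are to be compared within a library.

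The widest H3K27me3 islands in control neurospheres reached far beyond the promoter. Engase, an endoglycosidase gene, lay under islands of 275 and 221 kb in Ctrl against 56.2 and 56.4 kb in cKO, which covered 34.3% and 39.3% of its promoter, and it had none in the hippocampus. Pax2, a paired box gene of midbrain, eye and kidney, had 265 and 223 kb in Ctrl against 153 and 263 kb in cKO. Hoxc11 had 289 and 139 kb against 287 and 398 kb, and Acsf3 187 and 186 kb against 264 and 166 kb. Casz1 had 178 and 236 kb in Ctrl against 179 and 44.0 kb in cKO. Foxo6, a forkhead gene of the hippocampus, had 203 and 208 kb against 198 and 50.2 kb. In Casz1 and Foxo6 only cKO replicate 2 was narrow, whereas in Engase both cKO libraries were.

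Width went with the kind of gene. Ordered by the mean width of the control neurosphere H3K27me3 island, the members were divided into 4 groups of 147, 146, 146 and 146 promoters, with widths of 2.8 to 11.8, 11.9 to 24.4, 24.4 to 48.7 and 49.1 to 248 kb. The share in the transcription factor classes was 10.2%, 21.9%, 26.7% and 53.4%. Hippocampal H3K27me3 coverage over these groups, as the mean of the libraries of a genotype, was 57.2%, 72.1%, 71.6% and 81.4% in Ctrl against 62.3%, 75.4%, 72.7% and 79.6% in cKO. H2AK119ub1 coverage in cKO neurospheres was 49.5%, 71.8%, 79.0% and 89.7%, and H3K36me2 coverage in control neurospheres was 8.60%, 5.81%, 2.80% and 1.56%. The narrowest group thus had the lowest H3K27me3 and H2AK119ub1 and the highest H3K36me2 coverage. The widths came from libraries that chose the members, and these values are given as a description with no test.

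**Figure D4:**
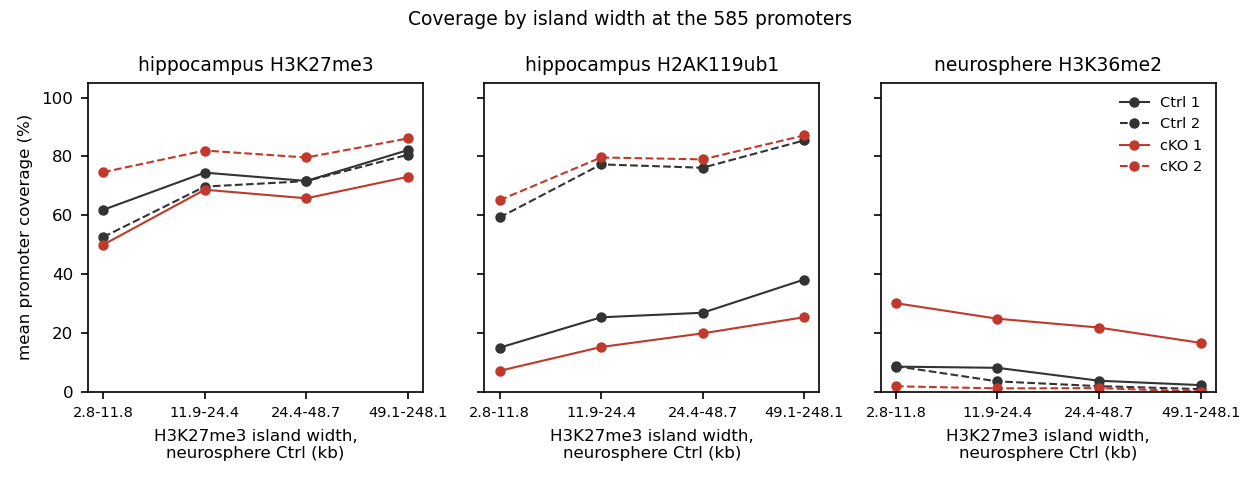
Mean promoter coverage in percent of the members in 4 groups by the width of their control neurosphere H3K27me3 island in kb, with 1 line per library, for hippocampus H3K27me3, hippocampus H2AK119ub1 and neurosphere H3K36me2. Lines of the Polycomb marks are lowest in the narrowest group, and control neurosphere H3K36me2 goes from a mean of 8.60% to 1.56%.

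Gene classes differed in how fully tissue carried the marks. The 24 Hox cluster members were covered completely by H3K27me3 in all 8 H3K27me3 libraries and had no H3K36me2 island in any library, and their hippocampal H2AK119ub1 coverage was 70.0% and 99.2% in Ctrl against 50.4% and 99.2% in cKO. The other homeobox members followed, with hippocampal H3K27me3 of 97.3% and 96.2% in Ctrl against 95.9% and 98.2% in cKO. Members outside all classes had 62.5% and 56.9% in Ctrl against 52.5% and 72.6% in cKO. Ion channel members had 82.6% and 82.4% against 78.6% and 90.5%. Lowest of the signalling classes were the Notch, Eph, semaphorin and Slit members, at 46.5% and 52.1% against 35.1% and 64.6%. In each class named here except Hox, the cKO libraries lay on either side of the Ctrl libraries or within them.

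Examples of the densest hippocampal H3K27me3, taken within each gene class, follow. Hoxa11 lay under an island with 70.0 and 68.6 counts per kb in Ctrl against 77.2 and 109 in cKO. Evx1 and Evx2, homeobox genes at the ends of the Hoxa and Hoxd clusters, had 65.1 to 70.0 and 63.1 to 69.9 in Ctrl. Of the others, Hand2, a heart and limb regulator, had 68.1 and 58.3, Foxf1 61.5 and 61.7, Gata2, a blood regulator, 58.8 and 50.5, Wnt10b 55.5 and 51.8, Gdf6 51.6 and 47.3 and the kainate receptor gene Grik3 48.0 and 38.0 in Ctrl. H3K27me3 covered all of these promoters completely in all 4 hippocampal libraries. In the FGF and Hedgehog class the Hedgehog ligand gene Ihh had 47.7 and 45.3 in Ctrl, and in the Notch, Eph, semaphorin and Slit class the guidance gene Slit1 had 42.3 and 34.9.

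Lhx1 and Dmbx1, both homeobox genes, were the only members covered completely in all 16 libraries of the Polycomb marks. The H3K27me3 island of Lhx1 was 48.6 and 47.0 kb wide in Ctrl against 48.4 and 48.0 kb in cKO hippocampi, and 70.8, 63.4, 74.4 and 65.2 kb in the neurosphere libraries in the same order. Coverage of at least 50% in all 16 was found in 47 members, among them Barhl1, Barhl2, Dlx5, En1, Foxd3, Neurog1, Otp, Pitx1, Sim1, Sim2, Uncx and Wt1, which were picked from the 47 after their values were seen.

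Among the 51 members without H3K27me3 in any hippocampal library, by H3K27me3 counts in control neurospheres the leading ones were Arid3a, Acsf3, Igf2bp3, Foxo6, Ly6h and Naaa. In neurospheres H3K27me3 covered 73.6% to 100% of each of these 6 promoters in both genotypes. Acsf3 and Naaa also had no H2AK119ub1 island in tissue, whereas Arid3a had 0% and 60% in Ctrl against 0% and 41% in cKO. H3K27me3 at these promoters was called in the cultures and was not detectable in tissue at this depth.

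**Figure D5:**
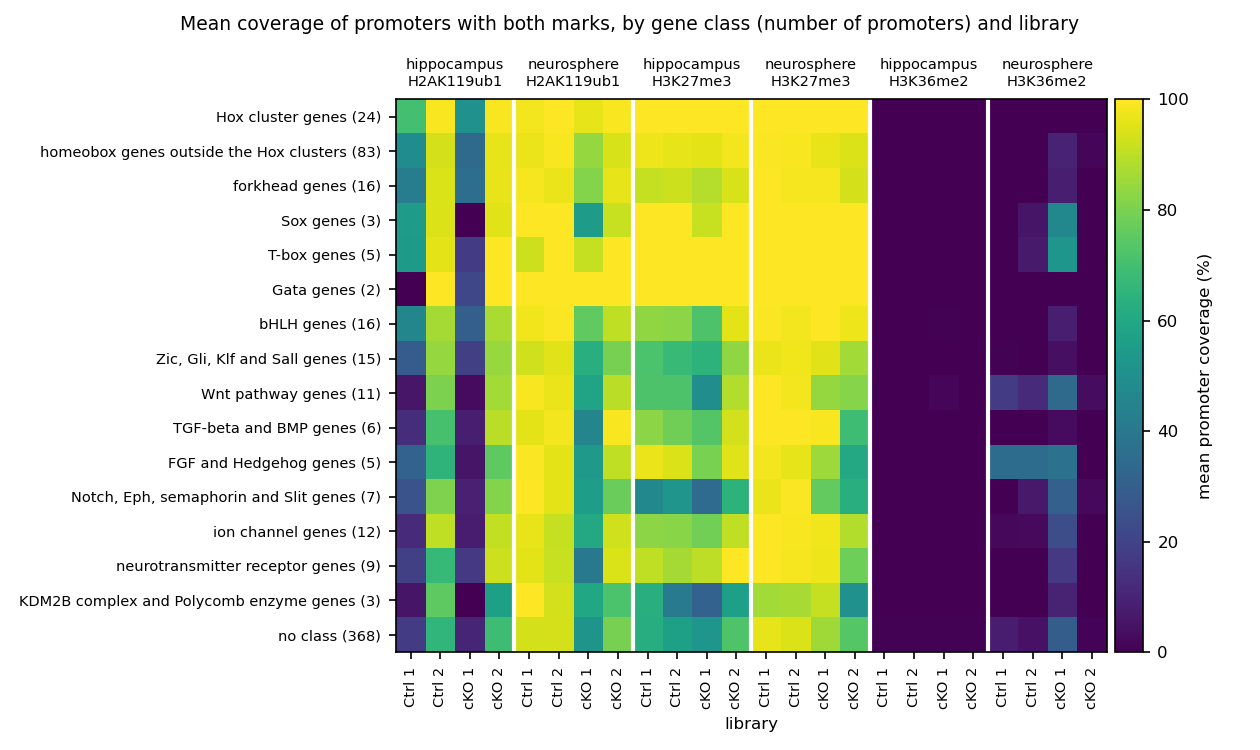
Mean promoter coverage in percent of the members of each gene class (rows) in each of the 24 libraries (columns), on a colour scale from 0 to 100. Hox cluster members stand at 100% in all 8 H3K27me3 columns and at 0 in all 8 H3K36me2 columns.

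Of the Wnt pathway, the members were the ligand genes Wnt3a, Wnt4, Wnt5b, Wnt6, Wnt9a, Wnt9b and Wnt10b, the receptor gene Fzd2, the secreted antagonists Sfrp1 and Notum and the nuclear effector Lef1. As a class their hippocampal H3K27me3 coverage was 72.0% and 71.9% in Ctrl against 48.8% and 88.3% in cKO, and their H2AK119ub1 coverage was 5.97% and 80.4% against 2.77% and 86.1%. H3K27me3 covered Wnt6, Wnt9b and Wnt10b completely in all 4 hippocampal libraries. Wnt9a had 100% and 93.2% in Ctrl against 0% and 100% in cKO, and Wnt4 100% in both against 32.8% and 100%. Sfrp1, an inhibitor that binds Wnt proteins, had 57.5% and 80% against 45% and 100%. Fzd2 had no H3K27me3 island over its promoter in tissue. Lef1, a partner of beta-catenin needed for the dentate gyrus, had 33.2% and 18.2% in Ctrl against 0% and 80% in cKO. In none of the 11 were the genotypes apart in hippocampal H3K27me3, where 3.76% (lower) and 8.96% (higher) of all CpG-rich promoters with an island were apart.

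In cKO neurospheres the Wnt members had H2AK119ub1 coverage of 58.6% and 89.8% after 99.2% and 97.0% in Ctrl, as a description. H3K27me3 at Wnt5b was at 100% in both Ctrl libraries and at 0% in both cKO libraries, which still had H3K36me2 islands there. Notum had 39.4% and 100% of H2AK119ub1 in cKO, and Lef1 63.3% and 0%. Neurod1, a neuronal differentiation factor gene, had hippocampal H3K27me3 of 75% and 51.3% in Ctrl against 0% and 100% in cKO. Other genes that the study examined at the chromatin level were no members. Wnt7b, Wnt10a and Pax6 had CpG ratios of 0.455, 0.395 and 0.570 over 1 kb and so were not CpG-rich by the rule. Wnt3 and Eomes had no H2AK119ub1 island in control neurosphere replicate 2, and Sfrp2 had H3K27me3 coverage of 27% and 2% in control neurospheres.

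Read counts gave a second view of the same promoters. Islands of the 4 libraries of a mark and source were merged into regions, and the regions with an island in every library were fitted together with edgeR's quasi-likelihood test, since counts outside islands are unknown rather than 0. For hippocampal H2AK119ub1, 210 regions held 241 members, and the median log2 fold change of cKO over Ctrl was -0.16 against 0.02 over all regions. For hippocampal H3K27me3, 386 regions held 423 members, with a median of -0.21 against -0.02. None of the member regions of either mark passed the test at a false discovery rate of 0.05, nor did any region in the whole table (background 0%). Without Ctrl replicate 2 the H3K27me3 median was 0.04, so its direction rests on that library.

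At an unadjusted p under 0.05 edgeR found 3 of the 210 H2AK119ub1 regions (1.43%, background 1.09%) and 5 of the 386 H3K27me3 regions (1.30%, background 3.53%). For H3K36me2 it found 0 of 3 regions in the hippocampus (background 4.93%, and 0% at the false discovery rate) and 0 of 45 in neurospheres (background 2.14%, and 0%). DESeq2 called no member region at that false discovery rate in any of the 4 comparisons and had 3, 6, 0 and 0 at an unadjusted p under 0.05. Over all regions it called 0, 3, 17 and 83 and had 2.11%, 4.42%, 10.95% and 6.77% at that unadjusted p. The smallest adjusted p of a member region in edgeR was 0.999, 0.994, 0.996 and 0.962 in the same order. In simulated counts with a planted 4-fold change, the same fit recovered 53.5%, 62%, 53% and 12% of the changed regions in these comparisons. The changes were planted in 200 regions drawn at random from all regions of a comparison, with a common dispersion. These shares are thus not those of member regions alone. Changes of that size and smaller ones could escape the fit, above all in neurosphere H3K36me2.

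The 8 member regions under an unadjusted p of 0.05 were named after their values were seen, and none passes the adjustment. The largest difference was at Gli3, a zinc finger effector of Hedgehog signalling (chr13:15459601-15473000, mm10). Its H2AK119ub1 region had 155 and 270 counts in Ctrl against 52 and 93 in cKO hippocampi, a log2 fold change of -1.69 (SE 0.64, edgeR adjusted p = 0.999). Pmepa1 was lower as well (219 and 527 against 48 and 393) and Nkx2-4 higher (42 and 196 against 184 and 276), with edgeR log2 fold changes of -1.37 and 1.32. For H3K27me3 the calcium channel gene Cacna1i (chr15:80266801-80300400, mm10) had 571 and 214 counts in Ctrl against 1221 and 1254 in cKO, a log2 fold change of 1.00 (SE 0.33, edgeR adjusted p = 0.994). Pax7, Cacna2d2, Reln and Hsf4 had log2 fold changes of -0.86, -0.69, -0.83 and -0.86. Reln, which encodes the reelin signal of Cajal-Retzius cells, had 789 and 325 counts against 537 and 463, and raw counts carry each library's depth, which the fit scales.

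For neurosphere H2AK119ub1 and H3K27me3 the fitted values are a description, since the Ctrl libraries chose the members. The median log2 fold change was -0.29 over 481 regions and -0.48 over 490, against 0.01 over all regions of each mark. For neurosphere H3K36me2 the median over 45 regions was -0.20, and it ranged from -1.47 to 0.28 as single libraries were left out. Without cKO replicate 1, 11 of the 45 regions passed a false discovery rate of 0.05, all lower in cKO, beside 2039 of 34454 regions in the whole table, which is a fit with 1 cKO library assumed to vary like the rest.

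The nearest neighbours of the members were the 557 CpG-rich promoters with H3K27me3 but not H2AK119ub1 over the limit. In hippocampal libraries their H3K27me3 coverage was 55.9% and 50.2% in Ctrl against 42.6% and 69.8% in cKO, and the members had 1.33 times as much (geometric mean, 1.16 to 1.51), more in 4 of 4 libraries. For H2AK119ub1 the members had 1.94 times as much (1.28 to 2.89), also more in 4 of 4, and for H3K36me2 0.685 times as much (0.439 to 1.27), more in 2 of 8. These promoters had H2AK119ub1 coverage of 77.8% in control neurosphere replicate 1 and 9.67% in replicate 2, so the line between both sets was drawn largely by replicate 2. They held 6 homeobox genes outside the Hox clusters against 83 among the members and 13 Wnt pathway genes against 11.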

How the data were processed

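ChIP-seq libraries of H3K27me3, H2AK119ub1 and H3K36me2 (24 with files, 2 per mark, genotype and source) were analysed. The 12 input samples are not analysed here as files of their own. Per the study's methods and the labels, the authors aligned reads to mm10 with Bowtie2 (2.4.5), removed duplicates and called islands in each library against input with SICER (version not given in the sources used here; window 200 bp, gap 600 bp, false discovery rate 0.01). The deposited values are whole-number read counts per island, not normalized. No count exists outside an island, so a base outside islands is not a measured 0, and island calls depend on depth. Counts of promoters and their shares are given without an error estimate, and they differed between replicate libraries.

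From these files the share of promoter bases in islands, island width (median over members with an island) and counts per kb were computed per library with Python 3.11.15, numpy 2.4.6 and pandas 2.3.3, over 20807 autosomal protein-coding promoters of GENCODE vM21, and 9 mitochondrial islands were left out. Figures were drawn with matplotlib 3.10.9. Read counts of merged regions with an island in all 4 libraries were fitted with edgeR 4.0.16 (quasi-likelihood, TMM, genotype as the term, in R 4.3.3) and alternatively with DESeq2 1.42.0, with Benjamini-Hochberg adjustment over all regions of a mark and source. The scripts were tested on simulated data, with 200 regions changed 4-fold per comparison. No 2 files were identical, and p-values measure only the spread between these samples. Exact permutation tests of member means were computed over libraries, but no p is printed for them.

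The members, gene classes and motifs were chosen with earlier results of these data known. The genes named were the 5 members with the largest loss and the 5 with the largest gain of mean coverage among those whose genotypes do not overlap (hippocampal H3K27me3 and H2AK119ub1, neurosphere H3K36me2), the 6 with the widest control neurosphere H3K27me3 islands, the 6 with the highest H3K36me2 coverage, up to 6 without H3K27me3 in tissue or complete in 16 libraries, the 2 densest of each class (a selection is printed), genes the study examined and those next to the limit. Some genes that this rule picks are not reported here. Others are said to be named after their values were seen. Sequences come from mm10. A RefSeq promoter table held 415 members by symbol, 165 with the same window. Alternatives were a 1 kb promoter window, islands of at least 2 kb, an equal covered length per library, a coverage limit of 100%, a GC content above 55% with a CpG ratio above 0.75, 1 promoter per overlapping cluster, membership set by hippocampal Ctrl libraries, a replicate block, DESeq2 and leaving out each library.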

Additional observations from a re-analysis of the deposited data

Results flagged for a closer look

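Among the members, the counts per kb and the widths of H3K36me2 islands moved in opposite directions between hippocampus and neurospheres, each with both libraries of a genotype on 1 side. The log2 ratio of counts per kb of members over other CpG-rich promoters was 0.013 and 0.0060 in Ctrl against 0.085 and 0.070 in cKO hippocampi, and 0.10 and 0.056 in Ctrl against -0.0016 and 0.013 in cKO neurospheres. The change in the hippocampus minus that in neurospheres was 0.14 on the log2 scale. Median island width was higher by 1.4 kb in cKO hippocampi and lower by 4.6 kb in cKO neurospheres, which makes a difference of 6 kb. Neither difference was tested, and the hippocampal values rest on 11 to 17 members with an island. The width pattern was not particular to the members. Over the other CpG-rich promoters the median width was 3.2 and 3.0 kb in Ctrl against 3.6 and 4.8 kb in cKO hippocampi. In neurospheres it was 5.2 and 4.8 kb in Ctrl against 4.0 and 3.0 kb in cKO.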

How the results depend on the processing

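Over 24 results and 238 alternatives, 195 were counted as unchanged. For library values this meant the same direction and side of the threshold. An exact permutation test of 2 libraries against 2 cannot pass it (p at least 0.333). For read counts it meant as many member regions past the false discovery rate. Their median log2 fold change still turned positive for hippocampal H3K27me3 without Ctrl replicate 2 (0.037). For neurosphere H3K36me2 it did so without Ctrl replicate 1 (0.077) or cKO replicate 2 (0.28). For the number of members, 396 against 585 counted as unchanged. With a 1 kb window the sign turned for hippocampal H3K36me2 coverage (-0.12 percentage points) and width (-1.1 kb) and for the neurosphere H3K36me2 ratio of members to others (0.12, log2). Islands of at least 2 kb gave hippocampal H3K36me2 coverage of -0.025, and 1 promoter per cluster gave -0.016. At equal covered length, hippocampal H2AK119ub1 width became 0.5 kb, H3K27me3 coverage -0.90, H3K27me3 ratio 0.036, H3K36me2 ratio 0.80 and neurosphere H3K36me2 ratio 0.058. A limit of 100% gave hippocampal H2AK119ub1 width 0.1 kb, H3K36me2 ratio 0.57 and density -0.13, and neurosphere H3K36me2 ratio 0.026. The stricter GC and CpG limits gave hippocampal density of 0.0070 for H2AK119ub1 and -0.29 for H3K36me2. The cause was not tested in any of these.

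For H3K36me2 in members against other CpG-rich promoters the value was -0.46 (log2, as reported). It was -1.01 at equal covered length, -1.02 with the stricter GC and CpG limits and -0.54 with 1 promoter per cluster. Without hippocampal Ctrl replicate 2 it was -0.60. These 4 alternatives were counted as changed because they passed a threshold without adjustment for several tests. Nothing is read from that, since the members were chosen with results of these data known. The value was -0.35 with a 1 kb window, -0.48 with islands of at least 2 kb and -1.11 at a limit of 100%. As single libraries were left out it ranged from -0.60 to -0.33. Members numbered 332 at a limit of 100%, 282 with the stricter GC and CpG limits, 193 when hippocampal Ctrl libraries set membership and 596 to 1049 as single libraries were left out of the rule, an alternative added after seeing the data.

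Leaving out 1 library gave, for cKO minus Ctrl in hippocampal H2AK119ub1, coverage of -33.6 to 27.3 percentage points, a ratio of -0.64 to 1.14, density of -0.12 to 0.077 and width of -3.3 to 2.5 kb. Hippocampal H3K27me3 gave coverage of -6.21 to 10.0, a ratio of -0.50 to 0.22 and density of -0.098 to 0.33. H3K36me2 coverage ranged from -0.090 to 0.11 in the hippocampus and from -3.64 to 18.6 in neurospheres, whose ratio ranged from -0.83 to 0.83. Hippocampal H2AK119ub1 turned without Ctrl replicate 2 or cKO replicate 1, and neurosphere H3K36me2 coverage without cKO replicate 1.

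Member regions past the false discovery rate in neurosphere H3K36me2 numbered 0 to 11 as libraries were left out. With the replicate block 1 hippocampal H3K27me3 member region passed (smallest adjusted p = 0.0209 in edgeR, 59 of 386 or 15.3% at an unadjusted p under 0.05, 51 of them lower in cKO, beside 9 of 4387 regions and 11.3% over the whole table) and none in the other 3 comparisons. Replicate numbers are not said to mark shared animals or days, and there are only 2 pairs. Depth limits every value here, since only islands carry counts.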
